A study of Mus musculus with 12 samples.

Results

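The 9 genes Atoh1, Neurog3, Neurod1, Insm1, Pax4, Nkx2-2, Rfx6, Isl1 and Pax6 encode transcription factors of the secretory and enteroendocrine lineages of the gut. They were chosen by name, out of 21853 protein-coding genes on the mouse chromosomes, and the called peaks of 4 histone H3 modifications were read over each gene body extended by 5 kb on either side. The study compared crypts and villi of the mouse small intestine by ChIP-Rx, a ChIP-seq with a spike-in of Drosophila S2 chromatin, here 5%, to ask how modifications on the H3 tail are distributed where that tail is cleaved in villi. Villi were scraped from the opened intestine and crypts were released from the remaining tissue with EDTA. No genotype, treatment, strain, age or number of animals is given in the sources used here, and H3K4me3, H3K4me1, H3K27me3 and H3K9me3 were each profiled with 1 library in crypts and 1 in villi. No difference between the compartments therefore has a replicate check, and no test was made.

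Secretory cells arise in crypts from progenitors that escape Notch signalling and switch on Atoh1. A minority of them express Neurog3 for a short time and become enteroendocrine cells, in which the other members act as later factors, before and after the cells move onto the villi. H3K27me3 is laid down by the Polycomb complex PRC2 at silent developmental genes, H3K4me3 marks active and poised promoters, H3K4me1 marks enhancers and promoter flanks, and H3K9me3 marks heterochromatin. A promoter with both H3K4me3 and H3K27me3 is called bivalent, and here a gene was called so when peaks of these modifications shared at least 1 bp within its window. Crypts and villi are mixtures in which enteroendocrine cells are rare, and the libraries were separate, so both modifications on the same chromatin and each in different cells cannot be told apart.

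H3K27me3 was called at all 9 members. An H3K27me3 peak lay in the window of 9 of the 9 genes in crypts, where 17.9% of all genes had a peak, and of 9 in villi, where 23.0% had a peak. With peaks of a score of 20 or more, the score being the authors' −log10 p-value, 6 members kept H3K27me3 in crypts (without Neurog3, Pax4 and Rfx6) and 7 in villi (without Pax4 and Rfx6). With the top 50% of each list 7 kept it in crypts and 9 in villi. The shares of all genes given above hold for the full lists and were not computed at these cuts. H3K4me3 was present at 4 members in crypts and 5 in villi, beside 63.2% and 63.5% of all genes. H3K4me1 was present at 7 members in crypts and 7 in villi, beside 69.1% and 68.8% of all genes. No member had an H3K9me3 peak in crypts or in villi, beside 3.89% and 3.11% of all genes. With shares this low, 0 of 9 does not set the members apart. The H3K9me3 lists hold 2126 and 2089 peaks numbered up to 6830 and 6635, so most numbered calls are not listed. The nearest listed H3K9me3 peak lay 92.0 kb from Neurog3 in villi.

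Atoh1, Isl1, Insm1 and Rfx6 were bivalent in crypts and in villi, and Pax6 in villi alone. The count was 4 members in crypts, where 7.86% of all genes were bivalent by the same rule, and 5 in villi, where 9.24% were. Bivalency in both compartments was called for 4 members and 6.55% of all genes, bivalency in villi alone for 1 member and 2.70%, and bivalency in crypts alone for 0 members and 1.31%. Among genes with H3K27me3 in the window, 43.9% were bivalent in crypts and 40.2% in villi, which are the shares to set beside the members' 4 of 9 and 5 of 9. Neurog3, Neurod1, Pax4 and Nkx2-2 carried H3K27me3 and no H3K4me3 in either compartment. These calls depended on the score of the peaks. With peaks of a score of 20 or more, 1 member remained bivalent in crypts (Atoh1) and 4 in villi (Atoh1, Pax6, Isl1 and Insm1). With the top 50% of each list 0 members were bivalent in crypts and 0 in villi. For H3K4me3 that cut lies at the list medians of 173 and 126. H3K4me3 peaks that overlap H3K27me3 had medians of 32.9 and 34.4, so the cut removes most of them at any gene. The share of all genes was computed at neither cut, so these counts say little about the members in particular. At a score of 20, Isl1 and Insm1 lost their H3K4me3 peaks in crypts, whereas Rfx6 kept its H3K4me3 peak there (20.4) and lost its H3K27me3 peak (14.4).

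**Figure D1:**
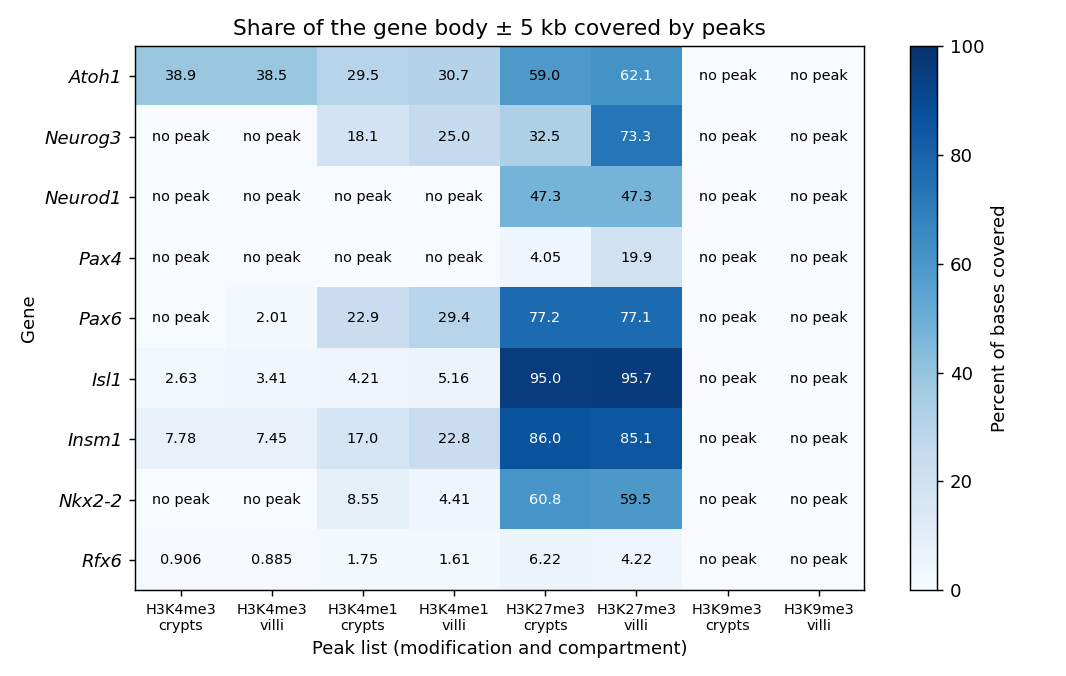
Share of the bases of each gene body ± 5 kb that lay under called peaks, in percent, for the 9 members (rows) and the 8 peak lists (columns), 1 library each. H3K27me3 covered between 4.05% and 95.0% of the windows in crypts and between 4.22% and 95.7% in villi, and no H3K9me3 peak was called.

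The regions and promoters to which these calls refer are shown by sequence. The middle 300 bases of the part shared by the crypts and villi H3K4me3 peaks downstream of Atoh1, chr6:64734463-64734762 of GRCm38 on the plus strand, lie outside any annotated gene, and capitals mark the match to CANNTG, the E-box bound by bHLH factors such as Atoh1 itself, searched on both strands, on which it reads the same.
Atoh1 downstream H3K4me3 peak: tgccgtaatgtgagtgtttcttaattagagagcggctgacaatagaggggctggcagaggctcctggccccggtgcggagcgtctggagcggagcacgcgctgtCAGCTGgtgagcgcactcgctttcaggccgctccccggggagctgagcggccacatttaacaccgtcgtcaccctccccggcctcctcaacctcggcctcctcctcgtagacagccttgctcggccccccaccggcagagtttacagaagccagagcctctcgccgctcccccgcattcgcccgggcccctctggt
The middle 300 bases of the H3K4me3 peak of Pax6 in villi, chr2:105669784-105670083 of GRCm38 on the plus strand, lie within an intron of Pax6 and within the span of its antisense gene Pax6os1, and capitals mark each CpG.
Pax6 villi H3K4me3 peak: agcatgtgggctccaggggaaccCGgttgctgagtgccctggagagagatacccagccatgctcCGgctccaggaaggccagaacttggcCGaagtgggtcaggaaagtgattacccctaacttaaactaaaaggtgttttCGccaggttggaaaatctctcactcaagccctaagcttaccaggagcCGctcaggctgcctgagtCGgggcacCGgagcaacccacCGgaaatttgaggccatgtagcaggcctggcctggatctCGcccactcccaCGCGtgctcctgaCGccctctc
The stretch downstream of Atoh1 held 1 CANNTG match, and 66.5% of crypts and 66.7% of villi H3K4me3 peaks held at least 1 in their middle 300 bases, so the match is common.

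To set bivalent promoters beside those with H3K27me3 and no H3K4me3, the 250 bases before the RefSeq start site (GRCm38.p6) are given for a pair of each, on the strand of the gene and with each CpG in capitals. They are chr6:64728875-64729124 (plus strand) for Atoh1, chr13:116309689-116309938 (minus strand) for Isl1, chr10:62132840-62133089 (plus strand) for Neurog3 and chr2:147186403-147186652 (minus strand) for Nkx2-2.
Atoh1 promoter: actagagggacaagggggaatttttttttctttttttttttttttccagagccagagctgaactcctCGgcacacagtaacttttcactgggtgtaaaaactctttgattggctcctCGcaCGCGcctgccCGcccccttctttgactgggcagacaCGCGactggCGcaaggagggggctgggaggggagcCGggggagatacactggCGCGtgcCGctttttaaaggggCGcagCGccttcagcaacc
Isl1 promoter: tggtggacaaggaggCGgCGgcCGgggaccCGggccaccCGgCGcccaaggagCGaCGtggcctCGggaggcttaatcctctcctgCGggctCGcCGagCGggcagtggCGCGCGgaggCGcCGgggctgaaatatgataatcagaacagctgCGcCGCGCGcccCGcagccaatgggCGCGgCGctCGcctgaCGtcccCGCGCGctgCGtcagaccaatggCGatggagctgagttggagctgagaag
Neurog3 promoter: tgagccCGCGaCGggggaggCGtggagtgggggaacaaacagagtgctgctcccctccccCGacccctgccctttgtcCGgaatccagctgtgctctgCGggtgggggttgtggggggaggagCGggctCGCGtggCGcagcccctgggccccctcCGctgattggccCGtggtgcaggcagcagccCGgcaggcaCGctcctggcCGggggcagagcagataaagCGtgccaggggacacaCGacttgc
Nkx2-2 promoter: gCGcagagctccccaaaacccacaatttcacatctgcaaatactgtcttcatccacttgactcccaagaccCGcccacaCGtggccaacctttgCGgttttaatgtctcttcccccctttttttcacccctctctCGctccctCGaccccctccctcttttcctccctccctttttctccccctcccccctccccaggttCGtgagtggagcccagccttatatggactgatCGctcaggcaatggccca
The bivalent Atoh1 and Isl1 promoters held 14 and 33 CpG in these 250 bases, and the promoters of Neurog3 and Nkx2-2, which had no H3K4me3 peak, held 18 and 8. The median over the 32851 RefSeq promoters was 6, so all of these lay above it, and the number of CpG did not order the 4 promoters by their H3K4me3 call.

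Atoh1 is the bHLH factor on which all secretory cells of the intestine depend (chr6:64729125-64731245, plus strand). It had the widest H3K4me3 of the members. Its promoter peak spanned 3769 bp in crypts, from -1864 to 1904 bp relative to the start site, and 3738 bp in villi, from -1821 to 1916 bp. These widths exceeded 94.7% and 93.5% of the peaks of their lists, whereas the scores of 57.5 and 49.2 exceeded only 31.5% and 32.4%. Downstream of the gene, 5032 to 5981 bp from the start in crypts and 5010 to 5943 bp in villi, a further H3K4me3 peak was called, which holds the region printed above.

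H3K27me3 joined the promoter of Atoh1 to this downstream region. A single H3K27me3 peak ran from -593 to 6561 bp in crypts (7155 bp) and from -877 to 6650 bp in villi (7528 bp). It held all of the downstream H3K4me3 peak and 66.3% of the promoter peak in crypts and 74.7% in villi, since H3K4me3 reached further upstream. H3K4me1 was called at the promoter (2537 bp in crypts, 2645 bp in villi) and again downstream (1040 bp and 1082 bp). In its own list the score of the promoter H3K4me1 peak stood above 61.6% of peaks in crypts and 98.1% in villi.

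Neurog3, the bHLH factor that commits progenitors to the endocrine fate (chr10:62133090-62134763, plus strand), had H3K27me3 and H3K4me1 at its start site and no H3K4me3. H3K27me3 covered 3798 bp of its window in crypts, in a peak from -967 to 2830 bp. In villi it covered 8558 bp, in a peak of 8267 bp from -4324 to 3942 bp and the inner part of a peak of 871 bp further upstream. Neurog3 was thus among the members with more H3K27me3 bases in villi.

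H3K4me1 at the start of Neurog3 spanned 1269 bp in crypts and 1532 bp in villi. Further H3K4me1 peaks from 5118 bp (crypts) and 5287 bp (villi) after the start lay nearer to a start of Fam241b, within whose span Neurog3 lies. An annotated start of Fam241b also lay inside the H3K27me3 peak over the start of Neurog3 in each compartment. For H3K4me3, the closest listed peaks were 21847 bp and 84528 bp away in crypts. The peaks are numbered along the genome, and no number was missing between those flanking peaks in either compartment, so no further H3K4me3 call had been numbered in between.

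Neurod1, a bHLH factor downstream of Neurog3 (chr2:79452521-79456751, minus strand), had 1 H3K27me3 peak over its start site in each compartment and no H3K4me3 or H3K4me1. The peak spanned 6725 bp in crypts, from -3985 to 2739 bp, and 6736 bp in villi, from -4164 to 2571 bp. The widths were thus nearly equal, although both ends lay further upstream in villi. Between the flanking H3K4me3 peaks, 586162 bp and 177799 bp away in crypts, 0 peak numbers were missing in crypts and 1 in villi.

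Insm1, a zinc finger factor of endocrine cells (chr2:146221921-146225020, plus strand), was bivalent in both compartments with the narrowest single H3K4me3 peak of the members. A pair of H3K4me3 peaks, of 347 bp and 672 bp in crypts and of 393 bp and 583 bp in villi, lay within 1507 bp after the start. The 347 bp peak was wider than only 0.946% of the crypts list. H3K27me3 was called in 4 peaks in each compartment, which together covered 86.0% of the window in crypts and 85.1% in villi.

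The H3K27me3 peaks of Insm1 left the bases from 385 to 817 bp after the start uncovered in both compartments. This gap held 79.7% G and C, against 52.6% in the whole window. It lay between the pair of H3K4me3 peaks, although in villi the ends of an H3K4me3 and of the H3K4me1 peaks reached into it. Reads from DNA of such base composition can be recovered poorly, and the part of this in the gap was not tested. H3K4me1 flanked the gap with 1252 bp and 973 bp in crypts and 1333 bp and 1102 bp in villi, and in villi a peak of 553 bp was added upstream.

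Pax4, a paired homeobox factor of endocrine precursors (chr6:28442334-28449353, minus strand), had the least H3K27me3 in crypts. A peak of 690 bp lay between -2031 and -1342 bp, with a score of 10.1, just above the threshold of the list, and in villi a peak of 3388 bp ran from -3054 to 333 bp. Pax4 was therefore the only member without H3K27me3 within 1 kb of a start site in crypts, where 8 members and 13.1% of all genes had it, whereas in villi 9 members and 16.1% of all genes did. No H3K4me3 or H3K4me1 peak was listed at Pax4 in either compartment. Between the flanking H3K4me3 peaks 0 peak numbers were missing in crypts and 1 in villi.

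Nkx2-2, a homeobox factor of several enteroendocrine types (chr2:147177546-147194243, minus strand), lay under 4 H3K27me3 peaks in each compartment. They covered 16245 bp of the window in crypts and 15875 bp in villi, and the peak over the start spanned 8614 bp and 8260 bp. No H3K4me3 peak was listed, with the closest listed peaks 171413 bp and 690424 bp away in crypts. Between the flanking H3K4me3 peaks 0 peak numbers were missing in crypts and 2 in villi. H3K4me1 was absent from the start site. It lay 1142 to 2119 bp and 6824 to 8129 bp downstream in crypts and only 6969 to 8145 bp downstream in villi, with 2284 bp and 1177 bp covered.

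Rfx6, a winged helix factor of the RFX family (chr10:51677756-51730432, plus strand), had a compact bivalent start site and no peak over the rest of its gene body of 52.7 kb. H3K4me3 spanned 568 bp in crypts and 555 bp in villi, H3K4me1 1098 bp and 1012 bp, and H3K27me3 3897 bp and 2646 bp. All of these peaks covered the start site, and H3K27me3 enclosed the others. Rfx6 was the member with the largest shortfall of H3K27me3 bases in villi against crypts. An annotated start 7762 bp further into the gene had no peak of any list within 1 kb.

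Isl1, a LIM homeobox factor of endocrine and neural cells (chr13:116298281-116309689, minus strand), had the highest H3K27me3 coverage. H3K27me3 took up 95.0% of its window in crypts and 95.7% in villi, in 3 peaks each, of which that over the start spanned 14123 bp and 14244 bp. Inside it H3K4me3 spanned 563 bp in crypts and 731 bp in villi, and H3K4me1 902 bp and 1105 bp, all over the start site. The H3K4me3 score was 11.8 in crypts, above 3.70% of its list, and 21.9 in villi, above 18.4%.

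Pax6, a paired homeobox factor needed for several hormone-producing cells (chr2:105668900-105697364, plus strand), was the member whose bivalent call differed between the compartments. In villi an H3K4me3 peak of 775 bp with a score of 22.6 was called 647 to 1421 bp after the start, and in crypts none. The closest listed H3K4me3 peaks in crypts were 269049 bp and 234765 bp away, and 1 peak number was missing between them. The H3K4me3 call in villi rests on 1 library, and its score lay above only 18.8% of the list.

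H3K27me3 at Pax6 formed the widest peak of the members. It spanned 35260 bp in crypts with a score of 63.5, the highest of the crypts list, and 22934 bp and 15382 bp in a pair of peaks in villi. Within the window the covered bases were 29688 bp in crypts and 29654 bp in villi. H3K4me1 was called in 5 peaks in crypts and 6 in villi, each wholly inside H3K27me3, with 8818 bp and 11314 bp covered. Of the 10 annotated start sites, that at 2960 bp had H3K4me1 within 1 kb in villi and not in crypts.

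**Figure D2:**
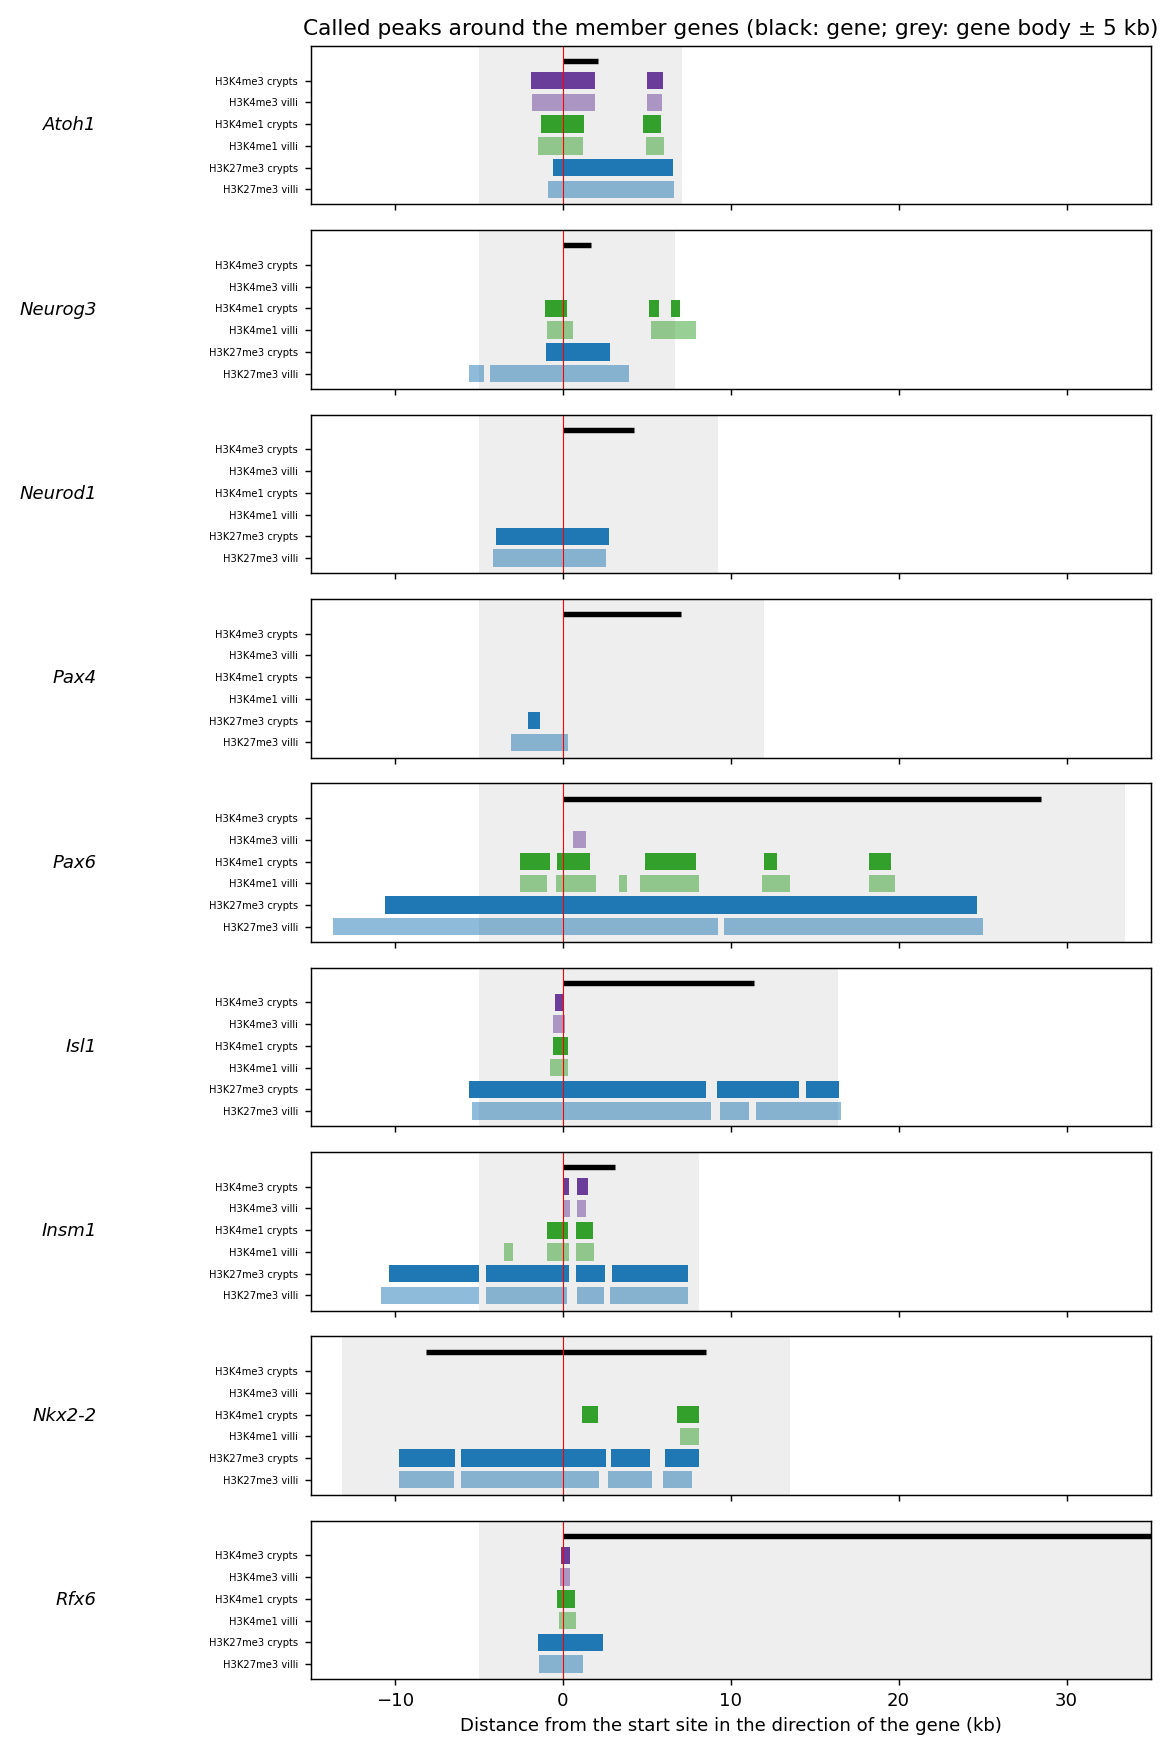
Called peaks that touch the windows of the 9 members, drawn to scale by distance from the start site in kb and in the direction of each gene (black bar, gene; grey, gene body ± 5 kb; full colour, crypts; pale colour, villi; 1 library each). Rfx6 runs on beyond the right edge of the panel, where no peak of these lists was called, and H3K9me3 is not drawn since no member had a peak. H3K27me3 spans the start site in every panel except that of Pax4 in crypts.

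At the promoters, which reach 1 kb up- and downstream of each annotated start, H3K4me3 was found at 4 members in crypts and 5 in villi (57.7% and 57.9% of all genes) and H3K4me1 at 6 and 6 (57.9% and 56.1%). Bivalent promoters were called at 4 members and 5.89% of all genes in crypts and at 5 members and 6.85% in villi, the same genes as in the wider windows. The members thus fell into few combinations. H3K27me3 with H3K4me3 and H3K4me1 was found at 4 members in crypts and 5 in villi, beside 6.10% and 7.36% of all genes. H3K27me3 with H3K4me1 and without H3K4me3 was found at 2 members in crypts (Neurog3 and Pax6) and 1 in villi (Neurog3), beside 2.18% and 3.11%. H3K27me3 alone was found at 2 members in crypts (Neurod1 and Nkx2-2) and 3 in villi (with Pax4), beside 4.31% and 5.10%. None of these modifications was found at 1 member in crypts (Pax4) and 0 in villi, beside 32.6% and 30.9% of all genes. H3K4me3 without H3K27me3, the state of 51.1% of all genes in crypts and 50.1% in villi, was found at 0 members in either. Since 8 members in crypts and 9 in villi had H3K27me3 at a promoter, genes with it are the closer comparison. Of 2860 such genes in crypts, 1333 had H3K4me3 and H3K4me1 too, 477 had H3K4me1 without H3K4me3 and 942 had neither. Of 3513 in villi, these counts were 1609, 679 and 1115. The 0 members follow from those H3K27me3 calls and from Pax4, which had none of these modifications in crypts.

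The bases under H3K27me3 were nearly the same number in crypts and villi at most members, except Pax4, Neurog3 and Rfx6. On the log2 scale the ratio of covered bases, villi over crypts, was 2.30 for Pax4 and 1.17 for Neurog3, and for Rfx6 it was -0.56. For the other 6 members it lay between -0.03 (Nkx2-2) and 0.07 (Atoh1). The median over the 9 members was 0.0024, with 5 above and 4 below 0. Over all 3746 genes with H3K27me3 in both compartments the median was 0.49 and the quartiles were 0.12 and 0.97, and the ratio of Rfx6 was higher than in only 2.40% of these genes. The window caps this measure. The ratio could not exceed 0.07 at Isl1, 0.22 at Insm1 and 0.37 at Pax6, all under that median, whereas the limits were 0.72 at Nkx2-2, 0.76 at Atoh1 and 1.08 at Neurod1. The low ratios of Isl1, Insm1 and Pax6 therefore do not show that H3K27me3 was stable there.

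H3K27me3 covered a large share of the window at most members. The median share of the window covered was 59.0% in crypts and 62.1% in villi, beside 6.93% and 8.44% over all genes with H3K27me3. The members were also shorter, with a median gene length of 7020 bp beside 17380 bp for all genes, so that a peak of given width fills more of their windows. The villi list was longer, with 13797 H3K27me3 peaks beside 7611 in crypts. A difference in depth between these libraries is unknown from the lists, and its part in the ratios was not tested.

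**Figure D3:**
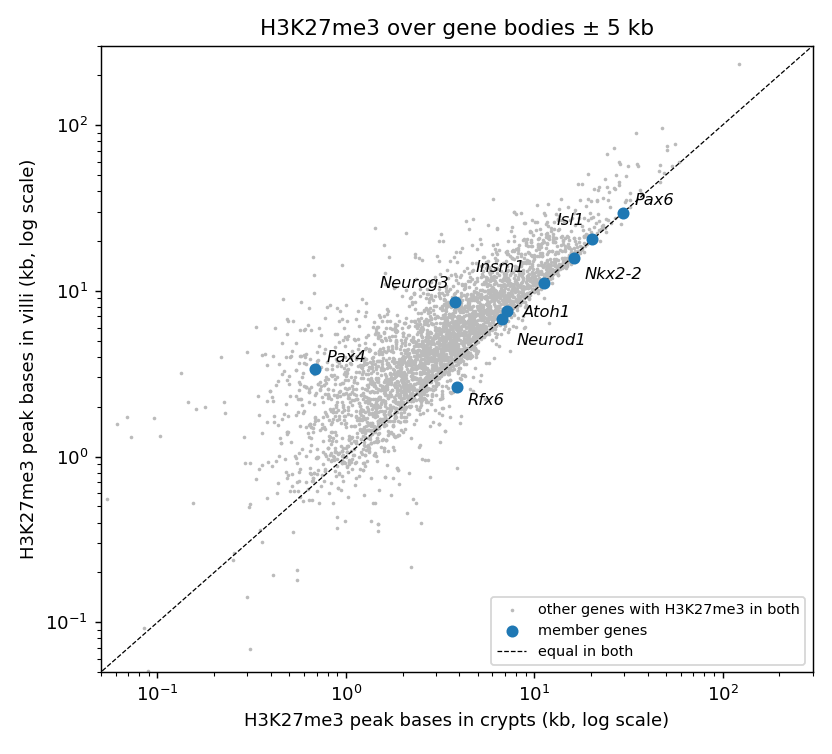
Bases under H3K27me3 peaks within each gene body ± 5 kb in crypts (x axis) and villi (y axis), in kb on log scales, for the 9 members and all other genes with H3K27me3 in both compartments, 1 library each. Pax4 and Neurog3 lie above the line of equal coverage, Rfx6 below it and the other 6 members on it or close to it.

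H3K4me3 of the members was weak within its list. The 6 peaks in crypts had scores between 11.0 (Insm1) and 57.5 (Atoh1), and those of the list had a median of 173. The 7 peaks in villi had scores between 13.6 and 49.2, with a median of 126 for the list. Low scores are common to H3K4me3 peaks that overlap H3K27me3, for which the median was 32.9 in crypts and 34.4 in villi, beside 204 and 150 for those without. Likewise, apart from the promoter peak of Atoh1, the members' peaks were 347 to 950 bp wide in crypts, whereas the median was 999 bp for H3K4me3 peaks with H3K27me3 and 1658 bp for those without.

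**Figure D4:**
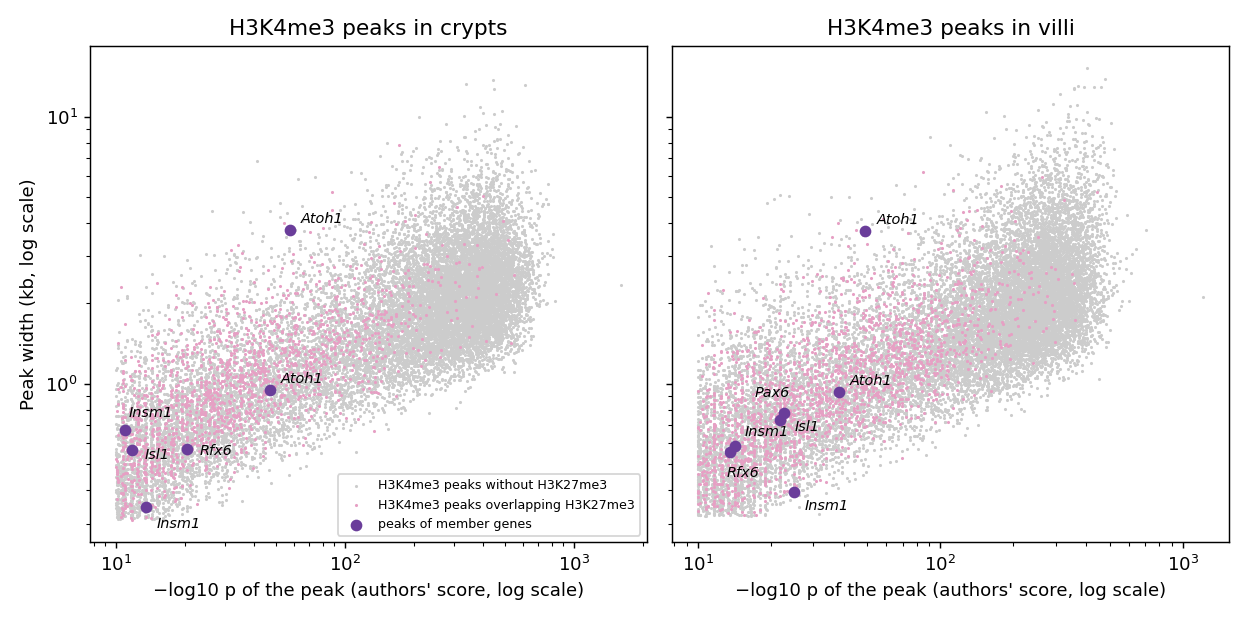
Score (−log10 p as given by the authors, x axis) and width in kb (y axis) of every H3K4me3 peak in crypts and in villi, both on log scales, with peaks that overlap H3K27me3 in pink and the members' peaks labelled, 1 library each. The promoter peak of Atoh1 is wide for its score, and the others sit at the narrow, low-scoring end.

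Most H3K4me1 peaks of the members overlapped H3K27me3. Of 16 member peaks in crypts 14 overlapped H3K27me3, and of 16 in villi 15 did, beside 27.1% and 28.3% of the H3K4me1 peaks in the windows of all genes with H3K27me3. Since H3K27me3 covered more of the members' windows than of those of most such genes, an overlap was also more likely at the members. The exceptions were the peaks after Neurog3 that lay nearer to a start of Fam241b. Among the 7 members with H3K4me1 in both compartments, the covered bases were higher in villi at Atoh1, Neurog3, Pax6, Isl1 and Insm1, with log2 ratios from 0.06 to 0.46, and lower at Nkx2-2 (-0.96) and Rfx6 (-0.12), beside a median of 0.02 over all genes with H3K4me1 in both.

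The promoters of the members spanned nearly the whole range of CpG content. The ratio of observed to expected CpG within 1 kb of the start was 0.950 at Insm1, higher than at 99.0% of genes, 0.779 at Isl1, 0.695 at Atoh1 and 0.610 at Pax6. It was 0.542 at Nkx2-2, 0.517 at Neurog3, 0.516 at Neurod1 and 0.473 at Rfx6, and 0.107 at Pax4, higher than at only 7.84% of genes. The median was 0.542 over the members and 0.482 over all genes. Within 500 bp of the start the order differed, with Neurod1 (0.679) and Nkx2-2 (0.672), which were not bivalent, above the bivalent Atoh1 (0.649) and Pax6 (0.568), so the values did not order the members by their bivalent call. Pax4 was lowest in both windows. Over all genes the median was 0.630 at promoters with both modifications in crypts and 0.520 at those with H3K27me3 and no H3K4me3.

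**Figure D5:**
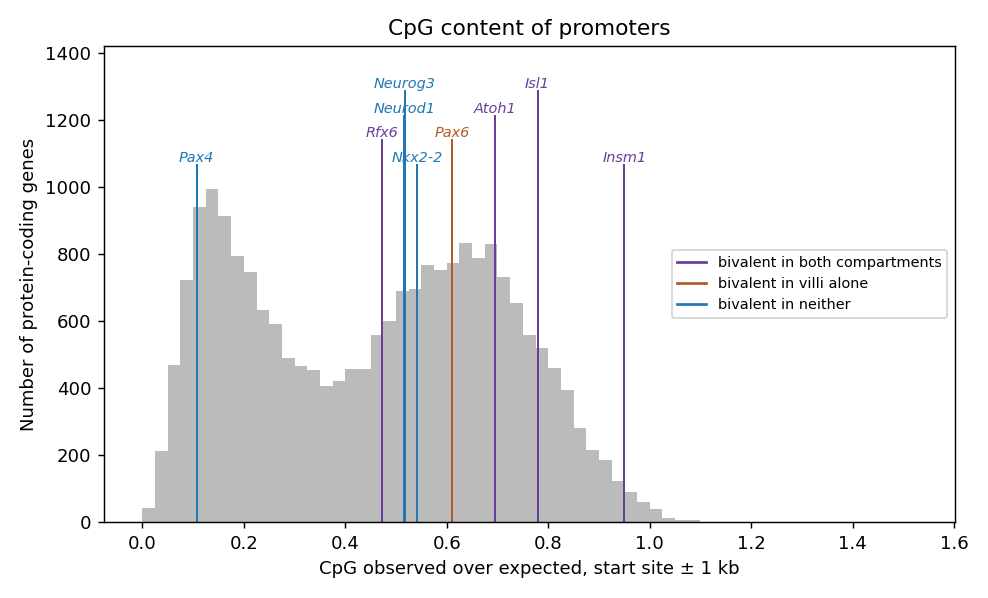
Distribution of the ratio of observed to expected CpG within 1 kb of the start site over all 21853 protein-coding genes (grey, number of genes per bin), with the 9 members as lines coloured by their bivalent call. Insm1, Isl1, Atoh1 and Pax6 lie at 0.610 or above and Pax4 at 0.107.

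Each member was matched to the gene with the most similar pattern, by the mean absolute difference in covered percent over 160 values (20 bins of 500 bp around the start in 8 lists). Neurod1 was closest to Bhlhe22, another bHLH gene, at 1.44 percentage points, and Pax4 to Hsd17b14 at 1.26. Nkx2-2 was closest to Otp (2.26), Rfx6 to Rarres1 (2.53), Isl1 to Sox7 (3.02) and Neurog3 to Zfyve28 (3.63). Pax6 was closest to Emx2 (7.15), Insm1 to Celsr3 (8.03) and Atoh1 to Rbpms (8.75). Some matches were barely ahead of the next gene. Hoxc12 lay equally near to Nkx2-2 at these digits (2.26), Vax2 at 3.07 from Isl1 and Igf2bp1 at 7.20 from Pax6. These distances depend on how much of the 10 kb is covered at all, and the median distance to all genes ranged from 11.9 percentage points for Pax4 to 37.0 for Pax6.

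Genes of the same pathway were read by the same rule. Of all genes, 17.9% in crypts and 23.0% in villi had H3K27me3, and 7.86% and 9.24% were bivalent. Among genes with H3K27me3, 43.9% and 40.2% were bivalent. Of 19 other secretory and enteroendocrine regulators, 10 had H3K27me3 in crypts and 12 in villi, and 6 and 7 were bivalent. Spdef, a goblet and Paneth cell factor, and Pou2f3, the tuft cell factor, were bivalent in crypts alone, whereas Etv1 and Lmx1a were in villi alone. Spdef had H3K4me3 (3151 bp) and H3K27me3 (1235 bp) in villi too, but without a shared base. Foxa1, Rfx3, Sox4, Sox9 and Tox3 had H3K4me3 and no H3K27me3 in both. Of 29 paralogues of the members, 22 had H3K27me3 in each compartment, and 6 were bivalent in crypts and 11 in villi. As with Pax6, H3K4me3 was called in villi alone at its paralogues Pax2 (449 bp) and Pax3 (858 bp), and also at Neurod2 (1321 bp) and Nkx2-5 (209 bp), while Atoh7 had it in crypts alone (482 bp). Rfx2 had H3K4me3 in both and was bivalent in villi alone. Pax8, Rfx1, Rfx3, Rfx5 and Rfx7 carried H3K4me3 without H3K27me3 in both.

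Genes upstream and downstream of the members were counted in the same way, beside the 17.9% and 23.0% of all genes with H3K27me3 in crypts and villi. The shares of all genes were 63.2% and 63.5% for H3K4me3 and 7.86% and 9.24% for bivalency. Of 16 genes of a list that held the Notch pathway with Id1, Id2 and Id3, other inhibitors of bHLH factors, 16 had H3K4me3 and 4 had H3K27me3 in each compartment, with Heyl, a Notch target, bivalent in villi alone. Of 12 intestinal identity factors such as Cdx1 and Cdx2, all had H3K4me3, and H3K27me3 was called at 0 in crypts and at 1 in villi (Gata4). Of 18 hormone and vesicle genes 9 had H3K27me3 in each compartment and 0 were bivalent in crypts and 1 in villi (Tph1, the enzyme of serotonin synthesis), while Pcsk1, Sct and Syp had H3K4me3 and no H3K27me3.

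As a check of the labels, H3K4me3 lay at the promoters of 5 of 5 epithelial markers in each compartment, 5 of 6 crypt markers in crypts and 4 in villi (without Olfm4 and Lyz1), and 6 of 6 villus markers in both, so the presence of H3K4me3 separated the compartments little. Of 4 immune markers 0 had it in crypts and 2 in villi (Ptprc and Cd3e), and of 4 mesenchymal and muscle markers 1 and 2. Of 5 markers of enteric neurons and glia, cells in which Isl1 can also be active, 2 had H3K4me3 in each compartment. Over all genes the shares at promoters were 57.7% in crypts and 57.9% in villi. None of the immune, mesenchymal or neural counts exceeds them. The higher villi counts of immune and mesenchymal markers move with the villi-only H3K4me3 of Pax6, and their part in it was not tested.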

How the data were processed

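ChIP-Rx libraries were analysed from their peak lists, 1 per compartment and modification. The authors aligned reads to mm10 and dm6 with Bowtie 1.1.2, removed duplicates and called peaks with MACS2 2.1.1 at p 1e-10. The deposited lists have no header, and their score was taken as a −log10 p-value, since it is 10 or more throughout; a q-value on that scale is possible. Scores were not scaled by the spike-in and depend on depth, which the lists do not give. The H3K9me2 lists and inputs were not used. Of 169072 peaks, 169071 lay within GRCm38 chromosomes. Genes and start sites (longest protein-coding transcript) came from GENCODE M21. Promoter sequences came from RefSeq and matched 7 of 9 members, without Pax4 and Insm1. Overlaps were computed with Python 3.11.15 and NumPy 2.4.6 and tested on simulated data, and figures drawn with Matplotlib 3.10.9. The members and gene lists were chosen with earlier results of these data known. All members are named. From the other lists, genes were named when bivalent in a single compartment or with H3K4me3 and no H3K27me3 in both, up to 6 each in alphabetical order. A few genes of these lists are not reported here by name. The methods and sample labels differ in the amounts of chromatin and antibody and in the beads used. Alternatives covered the window, overlap rule, score and nearest gene.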

Additional observations from a re-analysis of the deposited data

How the results depend on the processing

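Of 84 alternatives, 75 left the result within 1.5 times its value or within 1 SD over the members, and 9 moved it. All of the 9 restricted the peaks by score. Several of the 75 could hardly move. With 0 members at H3K9me3, a narrower window or list can only return 0. For the ratio of H3K27me3 bases, 1 SD over the members was 0.87, wide beside the median of 0.0024. With the top 50% of each list, 0 members were bivalent in crypts and 0 in villi, 0 had H3K4me3 in either compartment and 3 had H3K4me1 in crypts. That cut removes most H3K4me3 peaks that overlap H3K27me3 at any gene. With scores of 20 or more, 1 member was bivalent in crypts, 2 had H3K4me3 in crypts, and 3 had H3K4me1 in crypts and 4 in villi. Since scores depend on the depth of each library, such counts in crypts and villi are not on the same footing. Shares of all genes at these cuts were not computed. The overlap rules, windows and assignment to the nearest gene left the bivalent members the same. The median log2 ratio of H3K27me3 bases stayed between 0.0000 and 0.0073, and the median CpG ratio between 0.542 and 0.649. No paired analysis was possible because there is 1 library per compartment and modification. A gene without a peak lacked a call at this threshold, which does not show that the modification was absent.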

Other observations

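Other stretches without H3K27me3 in both compartments lay between the peaks of Insm1, Nkx2-2 and Isl1. At Nkx2-2 they measured 641 bp, 117 bp and 368 bp, with 54.3%, 33.3% and 53.8% G and C, beside 51.5% in the window. At Isl1 the stretch from 8839 to 9179 bp after the start held 37.5%, beside 45.0% in the window. At Insm1 the stretches of 400 bp upstream and 266 bp downstream held 53.8% and 36.8%. None of these contained a peak of another list, in contrast to the gap of 433 bp just after the start of Insm1.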
